A study of Danio rerio with 9 samples.

Results

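Larvae injected with sialylated oligosaccharides of the bovine milk type (SBMOs) were compared with control larvae (Ctrl) over the whole transcriptome. A gene entered the comparison when its level averaged 1 TPM or more in the 6 pools concerned, which held for 19020 of 32520 genes. TPM is a transcript level per unit of gene length, scaled to the same total in each library. All larvae were wild-type zebrafish of the AB strain, kept at 28 °C and collected whole at 5 days, and each library came from 1 pool of larvae. The 3 SBMO pools had received 4.6 nL of the oligosaccharides at 100 mmol/L by microinjection into the yolk at 4.7 h post fertilization, and the 3 Ctrl pools were not microinjected. None of the 9 libraries is from larvae injected with saline, and so the sugars and the injection itself cannot be told apart. The other 3 libraries came from larvae injected in the same way with sialylated human milk oligosaccharides (SHMOs), and they are used here for the spread between pools and for 1 paragraph on named genes. Nothing in the labels states that the pools of a group came from separate spawnings, so p-values measure the spread between these pools.

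Sialylated milk oligosaccharides are short sugar chains, mainly sialyllactoses in bovine milk, that end in sialic acid, a sugar abundant on the glycolipids and glycoproteins of the brain. A larva of this age still draws on its yolk while the liver, pancreas and intestine are taking up their work and the brain and retina are adding neurons. Whole larvae hold all of these organs at once. A level in such a pool therefore follows both how many cells of a type are present and how much RNA each of them holds, and fewer cells cannot be told apart from less RNA per cell.

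Markers of the main organs that could be matched by name were found in all 6 pools. No match was found for mylpfa, hbbe1.1, mpeg1.1 and mpx, which leaves macrophages without a marker. Some pancreas markers came close to the floor, with CPA1 (ENSDARG00000030915) at 0.22 TPM and ins (ENSDARG00000035350) at 0.91 TPM in SBMO pool 1. Other exocrine markers stayed above it. In the SBMO pools a further CPA1 entry (ENSDARG00000021339) lay between 6.50 and 29.0 TPM, ela2l (ENSDARG00000056765) between 11.4 and 40.8 TPM and prss1 (ENSDARG00000042993) between 21.6 and 144.5 TPM. The neuronal RNA-binding protein ELAVL3 (ENSDARG00000014420) lay between 36.6 and 104 TPM, the muscle creatine kinase ckma (ENSDARG00000035327) between 3106 and 5001 TPM, the keratin krt4 (ENSDARG00000017624) between 2185 and 5146 TPM, and the liver fatty acid binding protein fabp10a (ENSDARG00000038439) between 563 and 1958 TPM. The heart light chain MYL7 (ENSDARG00000019096) reached only 0.99 TPM in SBMO pool 2 and lay between 9.24 and 45.8 TPM in the others. Between 24915 and 25305 genes were above 0 in each of the 6 pools. The first principal component (52.7% of the variance) separated the groups, with Ctrl at -71.5 to -40.6 and SBMO at 41.1 to 69.4. The second component (17.0%) placed SBMO pool 1 at -52.0 and Ctrl pool 2 at -31.6, away from the other 4. TPM keeps no read depth, and no counting interval is given.

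Differences were tested with limma on log2(scaled TPM + 0.1), with 3 pools in each group, and are given as log2(FC) of SBMO minus Ctrl ± the standard error of the model. Calls required a Benjamini-Hochberg adjusted p of at most 0.05 over all genes tested together with a change of 0.58 or more in log2(FC). Of the 19020 genes, 3786 were called (19.9%), 1579 higher in SBMO (8.30%) and 2207 lower (11.6%). The unadjusted p was under 0.05 for 7519. The falls were the larger changes, with a median log2(FC) of -1.18 among genes called lower and 0.84 among genes called higher. Changes of 2 or more in log2(FC) were found for 388 genes called lower and 26 called higher. The median over all genes was 0.05 and the median standard error 0.212. All 3 SBMO pools lay above all 3 Ctrl pools for 23.5% of the genes and below them for 21.1%. They lay above for 1560 of the 1579 genes called higher and below for 2192 of the 2207 called lower. Separate pools at a called gene therefore describe it and add little to its call. The count rests in part on single pools, since 959 genes were called without SBMO pool 2 and 1290 without Ctrl pool 3.

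**Figure D1:**
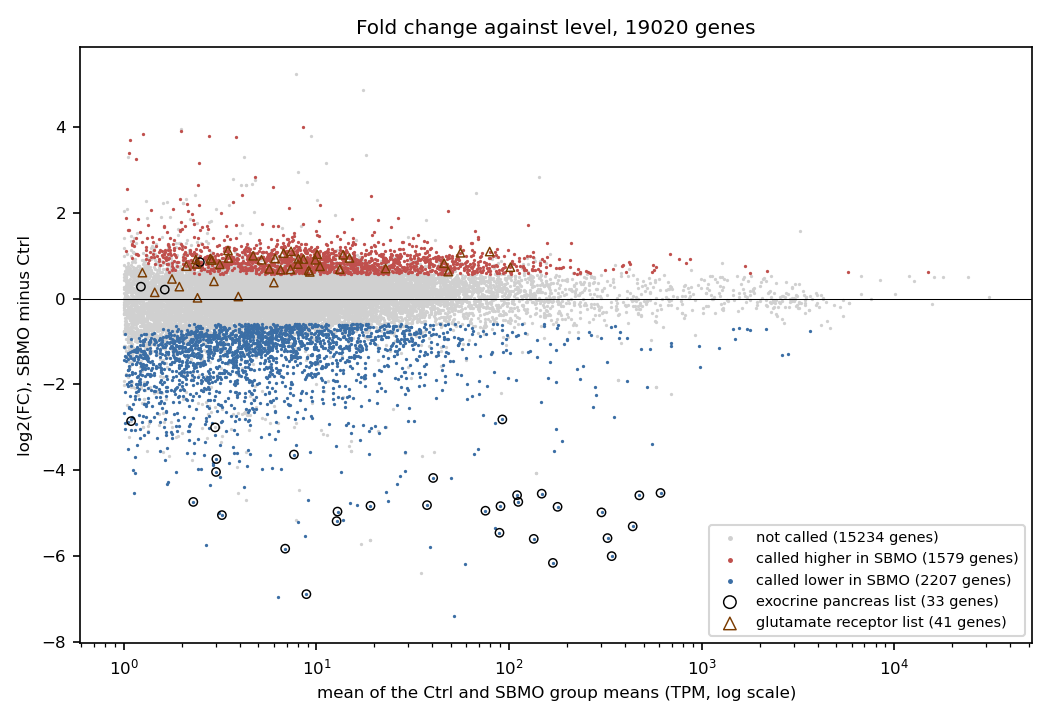
Each point is 1 of 19020 genes, with the mean of the 2 group means in TPM on a log axis and log2(FC) of SBMO minus Ctrl on the vertical axis. The genes called lower (2207) reach further from 0 than those called higher (1579), and exocrine pancreas genes (circles, 33) reach down to -6.89 while the glutamate receptor genes (triangles, 41) lie between 0.02 and 1.13.

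Levels near the filter set what could be seen. The lowest member was the angiopoietin ANGPT1 (ENSDARG00000030364) at a mean of 1.00 TPM, and the highest gene left out was nfr (ENSDARG00000114540) at 0.998 TPM. A total of 818 members had an SBMO mean under 1 TPM and 274 a Ctrl mean under 1 TPM. Such genes passed through the other group, and 416 of the genes called lower and 68 of those called higher were of this kind. They include SLC6A19, F7, SLC4A1, st3gal7 and MTHFD1 below, and an SBMO level under 1 TPM adds nothing to their calls. The same holds below for CEL, SYCN, HNF4A, TM4SF5, PROC, NR1H4, tnnc1a, COL10A1, FECH, KCNJ1 and CPLX3. It also holds for any other gene below whose SBMO values average under 1 TPM. Among the genes called higher, pcdh1g1 had a Ctrl mean under 1 TPM and is read in the same way.

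To describe functions, 54 lists of genes were compiled by name, of which 53 had a member among the genes tested. Together they held 2770 genes and 730 of the calls, so 3056 called genes stand in no list. The exocrine pancreas, intestinal epithelium, apolipoprotein and liver plasma protein lists had the highest shares of lower calls, glutamate receptors and radial glia the highest shares of higher calls, and the cytosolic ribosome, proteasome and nuclear respiratory subunit lists few calls. Of the 52 lists with a call, 48 had fewer calls by over 1.5 times without SBMO pool 2, 47 without Ctrl pool 3, 34 without Ctrl pool 2, 28 without Ctrl pool 1 and 15 without SBMO pool 1, so medians are given beside the counts of the main lists. Values of the 3 pools are given below in the order of pools 1, 2 and 3.

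**Figure D2:**
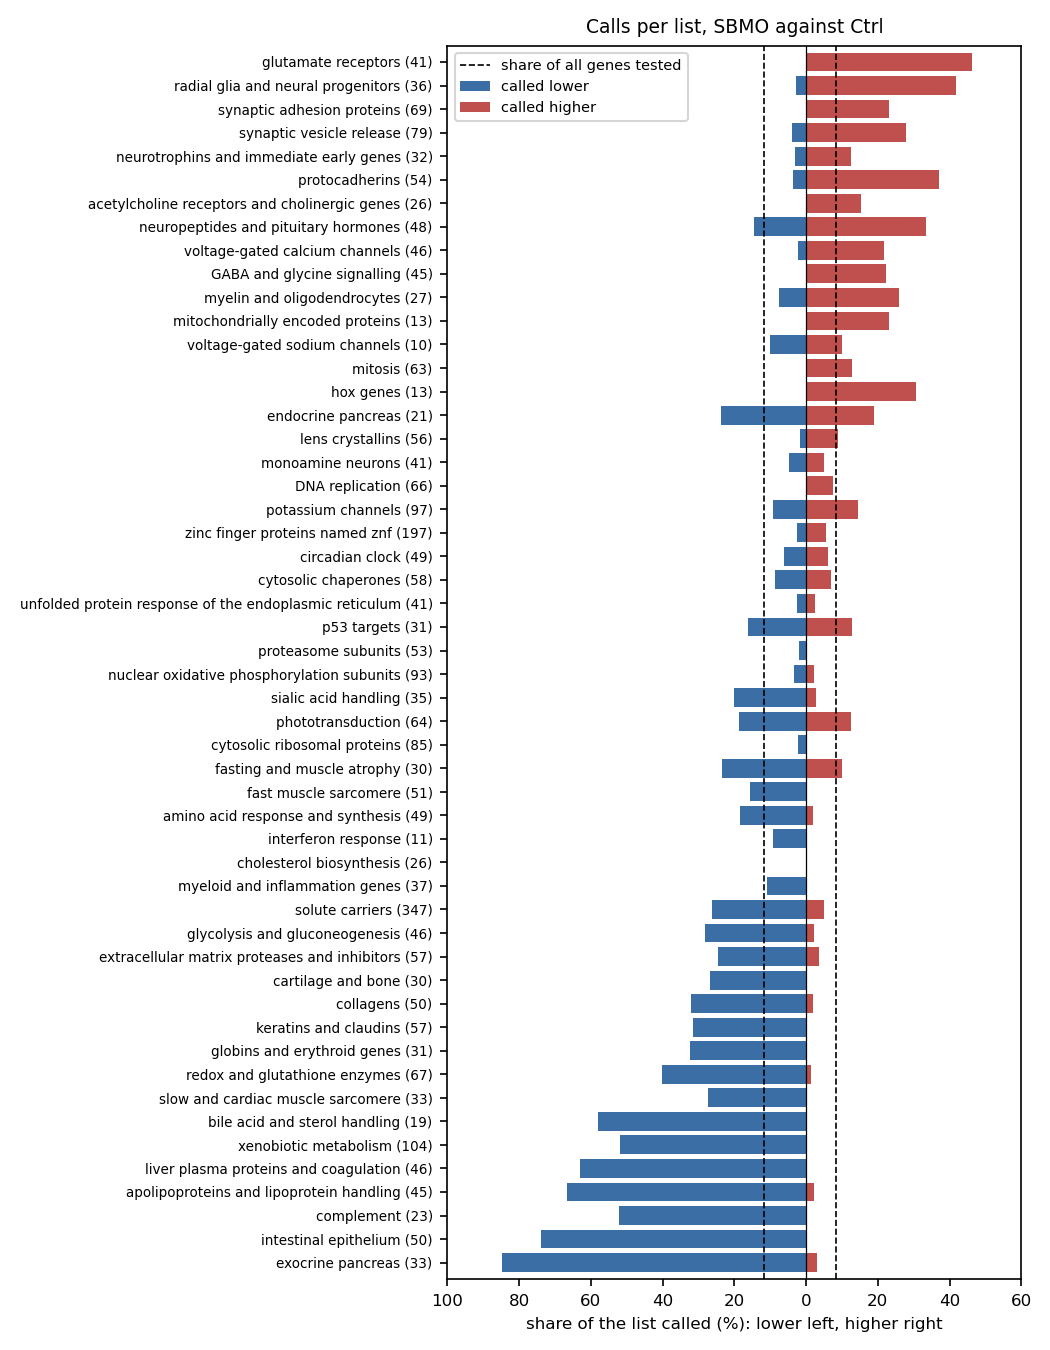
Bars give the percentage of each list's tested genes (numbers in brackets) that were called lower (left) or higher (right) for every list but that of small nuclear RNAs, ordered by median log2(FC), and dashed lines give the same over all genes (11.6% and 8.30%). The exocrine pancreas and intestinal epithelium lists stand at the foot with more than 70% lower, and glutamate receptors and radial glia stand at the top with more than 40% higher.

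Genes of the exocrine pancreas made the deepest fall. The acinar cells of this gland secrete digestive zymogens such as trypsins, chymotrypsins, elastases and carboxypeptidases into the gut. Of 33 genes tested, 28 were lower and 1 was higher, with a median log2(FC) of -4.82. Summed over the list the level was 5175, 7162 and 9772 TPM in the Ctrl pools and 139, 164 and 741 TPM in the SBMO pools. Every SBMO pool was thus far below every Ctrl pool, but SBMO pool 3 kept several times the level of the other two. Leaving out single pools kept the median between -5.43 without SBMO pool 3 and -4.44 without SBMO pool 1. The number of genes lower was 14 without Ctrl pool 3 and 15 without SBMO pool 2.

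The bile salt-dependent lipase CEL (ENSDARG00000029822), which digests dietary lipid esters, was at 9.35, 10.6 and 20.9 TPM in the Ctrl pools and 0.29, 0.05 and 0.10 TPM in the SBMO pools. The groups were apart by a wide margin (log2(FC) = -5.83 ± 0.65, adjusted p = 0.0037). An elastase of the same cells, cela1.3 (ENSDARG00000043173), was at 2.17, 4.88 and 6.50 TPM in the Ctrl pools and 0.04, 0 and 0.19 TPM in the SBMO pools, where 1 SBMO pool was listed at 0 (log2(FC) = -4.74 ± 0.65, adjusted p = 0.0047). The zymogen granule protein SYCN (ENSDARG00000090899) was at 10.5, 15.9 and 26.6 TPM in the Ctrl pools and 0, 0 and 0.18 TPM in the SBMO pools, so that it was listed at 0 in both of the lower pools. Near-identical copies make single trypsin and elastase genes uncertain, since reads can be split between them. Among the abundant zymogens, the chymotrypsinogen ctrb.2 (ENSDARG00000093844) was at 244, 339 and 412 TPM in the Ctrl pools and 3.34, 1.69 and 14.4 TPM in the SBMO pools. It showed the uneven pools clearly, with SBMO pool 3 the highest of its group and Ctrl pool 3 the highest of all (log2(FC) = -6.16 ± 1.03, adjusted p = 0.0073). Among the 10 largest falls by the rule for named genes, the trypsin prss59.1 (ENSDARG00000079274) was at 410.3, 685 and 906 TPM in the Ctrl pools and 5.13, 4.70 and 36.7 TPM in the SBMO pools (log2(FC) = -6.01 ± 1.16, adjusted p = 0.011), a call lost without SBMO pool 2 (0.052). The lipocalin APOD (ENSDARG00000060350), an apolipoprotein outside this list, was at 85.7, 157 and 252 TPM in the Ctrl pools and 1.71, 2.29 and 11.4 TPM in the SBMO pools (log2(FC) = -5.34 ± 1.07, adjusted p = 0.012), and its call was lost without Ctrl pool 3 (0.054) and without SBMO pool 2 (0.056). The exception among the pancreas genes was PTF1A (ENSDARG00000014479), a transcription factor of pancreatic progenitors that is also made by inhibitory neurons of the hindbrain and retina, at 1.46, 2.07 and 1.71 TPM in the Ctrl pools and 3.85, 3.35 and 2.47 TPM in the SBMO pools. It was higher in SBMO (log2(FC) = 0.85 ± 0.24, adjusted p = 0.034), a call that was lost without Ctrl pool 1 (0.094), without Ctrl pool 3 (0.083), without SBMO pool 1 (0.089), without SBMO pool 2 (0.11), with the 6 pools alone in the model (0.054) and with a replicate block (0.056) (adjusted p in brackets, as for all lost calls).

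Islet hormones were lower as well, whereas the transcription factor INSM1, which islets share with neurons, was higher. The endocrine pancreas list held 5 lower and 4 higher genes of 21, with a median of 0.31, so the list did not move as a block. Insulin, ins (ENSDARG00000035350), the hormone of the beta cells, was at 30.3, 43.6 and 62.7 TPM in the Ctrl pools and 0.91, 1.42 and 2.73 TPM in the SBMO pools. The highest SBMO pool was far below the lowest Ctrl pool (log2(FC) = -4.73 ± 0.64, adjusted p = 0.0047). The somatostatin gene sst2 (ENSDARG00000014190) was at 21.1, 21.2 and 37.3 TPM in the Ctrl pools and 0.29, 0.25 and 2.59 TPM in the SBMO pools, with SBMO pool 3 above the other two and still far below Ctrl (log2(FC) = -5.16 ± 0.72, adjusted p = 0.0049). The glucose transporter SLC2A2 (ENSDARG00000056196), used by beta cells, liver and intestine to sense and take up sugar, was at 10.2, 11.2 and 13.7 TPM in the Ctrl pools and 2.97, 1.36 and 2.71 TPM in the SBMO pools (log2(FC) = -2.31 ± 0.31, adjusted p = 0.0047). Glucagon, the hormone of the alpha cells, is encoded by gcga (ENSDARG00000079296) at 5.30, 4.73 and 7.60 TPM in the Ctrl pools and 1.55, 0.65 and 2.47 TPM in the SBMO pools. Its pools did not overlap but were closer together (log2(FC) = -1.98 ± 0.55, adjusted p = 0.031), and the call was lost without Ctrl pool 1 (0.065), without Ctrl pool 2 (0.069), without Ctrl pool 3 (0.11), without SBMO pool 1 (0.062) and without SBMO pool 2 (0.11). The zinc-finger factor INSM1 (ENSDARG00000053301), made by islet precursors and by newborn neurons, was at 10.2, 8.32 and 5.56 TPM in the Ctrl pools and 17.8, 12.4 and 14.97 TPM in the SBMO pools. It was higher in SBMO (log2(FC) = 0.95 ± 0.24, adjusted p = 0.024), a call lost without Ctrl pool 3 (0.073), without SBMO pool 1 (0.066) and without SBMO pool 2 (0.063).

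In the intestine, 37 of 50 genes were lower and 0 higher, with a median log2(FC) of -1.96. The count was 24 without Ctrl pool 3 and 23 without SBMO pool 2. These genes serve the absorptive enterocyte, whose brush border carries digestive enzymes and transporters. The brush border phospholipase plb1 (ENSDARG00000096445) was at 24.97, 18.1 and 20.1 TPM in the Ctrl pools and 4.30, 2.96 and 4.01 TPM in the SBMO pools. Its pools were tight within each group (log2(FC) = -2.45 ± 0.25, adjusted p = 0.0031). The neutral amino acid transporter SLC6A19 (ENSDARG00000091560) was at 8.09, 6.05 and 6.10 TPM in the Ctrl pools and 0.64, 0.59 and 0.90 TPM in the SBMO pools. All 3 SBMO pools were under 1 TPM, so the gene passed the filter through Ctrl (log2(FC) = -3.07 ± 0.38, adjusted p = 0.0044). The nuclear receptor HNF4A (ENSDARG00000021494), a regulator of liver and gut identity, was at 4.13, 4.74 and 5.39 TPM in the Ctrl pools and 0.96, 0.55 and 1.08 TPM in the SBMO pools, without overlap (log2(FC) = -2.36 ± 0.31, adjusted p = 0.0045). The membrane protein TM4SF5 (ENSDARG00000055185) was at 5.72, 4.57 and 8.02 TPM in the Ctrl pools and 0.91, 0.31 and 0.74 TPM in the SBMO pools (log2(FC) = -3.09 ± 0.41, adjusted p = 0.0047). Aminopeptidase N, ANPEP (ENSDARG00000103878), which trims peptides at the brush border, was at 28.9, 22.8 and 30.7 TPM in the Ctrl pools and 3.35, 2.07 and 5.52 TPM in the SBMO pools, and again each SBMO pool was far below Ctrl (log2(FC) = -2.96 ± 0.41, adjusted p = 0.0047).

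Apolipoproteins package the lipid of yolk and diet for transport in blood, and they are made in the yolk syncytial layer, liver and intestine of the larva. In this list 30 of 45 genes were lower and 1 was higher (median log2(FC) -1.24). The summed level was 10608, 10912 and 13370.2 TPM in the Ctrl pools and 3903, 4679 and 6405 TPM in the SBMO pools. Among them apoeb (ENSDARG00000040295), an apolipoprotein E, was at 688, 614 and 729 TPM in the Ctrl pools and 271, 296 and 321 TPM in the SBMO pools, with a narrow spread in both groups (log2(FC) = -1.18 ± 0.16, adjusted p = 0.0047). The lipoprotein lipase cofactor apoc2 (ENSDARG00000092155) was at 418, 426 and 545 TPM in the Ctrl pools and 69.1, 55.6 and 124 TPM in the SBMO pools. Here SBMO pool 3 was the highest of its group and still far below the lowest Ctrl pool (log2(FC) = -2.54 ± 0.36, adjusted p = 0.0051). Apolipoprotein apoa4b.2 (ENSDARG00000020866) was at 238, 342 and 446 TPM in the Ctrl pools and 24.7, 27.9 and 51.02 TPM in the SBMO pools (log2(FC) = -3.32 ± 0.48, adjusted p = 0.0051), and its neighbour in name apoa4b.1 (ENSDARG00000040298) at 408, 434 and 555 TPM in the Ctrl pools and 83.6, 81.2 and 128 TPM in the SBMO pools (log2(FC) = -2.25 ± 0.33, adjusted p = 0.0054). Both had wholly separate pools. The gene called higher was the endothelial lipase LIPG (ENSDARG00000031044), at 13.2, 10.3 and 15.5 TPM in the Ctrl pools and 15.7, 20.1 and 23.7 TPM in the SBMO pools. Its groups nearly touched (log2(FC) = 0.62 ± 0.20, adjusted p = 0.046), and the call was lost without Ctrl pool 1 (0.11), without Ctrl pool 2 (0.13), without Ctrl pool 3 (0.0507), without SBMO pool 2 (0.13), without SBMO pool 3 (0.12), without SHMO pool 2 (0.064), without SHMO pool 3 (0.067), without the filter on low values (0.056), without scaling (0.057), with quantile normalization (0.076), with the 6 pools alone in the model (0.075), without a trend in the variance prior (0.059) and with a replicate block (0.067).

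Liver-made blood proteins followed. Of 46 genes for plasma proteins and coagulation, 29 were lower and 0 higher (median -1.22), and of 23 complement genes 12 were lower and 0 higher (median -1.43). SBMO pool 3 was the exception here, with a median deviation from the mean of the 6 pools of -0.06 log2 units for plasma proteins and 0.02 for complement, against -1.21 and -1.24 in SBMO pool 1. Coagulation factor F7 (ENSDARG00000100782) was at 2.50, 2.76 and 2.08 TPM in the Ctrl pools and 0.28, 0.32 and 0.45 TPM in the SBMO pools, and it passed the filter through Ctrl (log2(FC) = -2.50 ± 0.32, adjusted p = 0.0045). The anticoagulant protease PROC (ENSDARG00000093079) was at 3.39, 3.93 and 5.02 TPM in the Ctrl pools and 0.48, 0.45 and 0.94 TPM in the SBMO pools (log2(FC) = -2.58 ± 0.34, adjusted p = 0.0047). Angiotensinogen, agt (ENSDARG00000016412), the precursor of the angiotensins, was at 21.8, 18.9 and 30.9 TPM in the Ctrl pools and 3.83, 4.34 and 8.66 TPM in the SBMO pools, with pool 3 the highest in each group (log2(FC) = -2.12 ± 0.35, adjusted p = 0.0071). The urate oxidase uox (ENSDARG00000007024) was at 58.2, 65.7 and 93.2 TPM in the Ctrl pools and 14.02, 21.8 and 26.3 TPM in the SBMO pools, without overlap (log2(FC) = -1.80 ± 0.30, adjusted p = 0.0074). The complement component c3b.2 (ENSDARG00000001818) was at 3.80, 5.41 and 5.66 TPM in the Ctrl pools and 0.79, 0.61 and 1.33 TPM in the SBMO pools. Its groups were separate (log2(FC) = -2.35 ± 0.46, adjusted p = 0.011), though the call was lost without SBMO pool 2 (0.053). Over the complement list, 1 gene was lower without Ctrl pool 3, 1 without SBMO pool 2 and 16 without SBMO pool 3.

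Bile acids are made from cholesterol in the liver and dissolve dietary lipid. Of 19 genes of bile acid and sterol handling 11 were lower and 0 higher (median -0.99). The rate-limiting enzyme CYP7A1 (ENSDARG00000069018) was at 22.99, 20.1 and 26.1 TPM in the Ctrl pools and 2.95, 1.09 and 2.52 TPM in the SBMO pools, and even the highest SBMO pool was a small part of the lowest Ctrl pool (log2(FC) = -3.43 ± 0.37, adjusted p = 0.0037). The bile acid receptor NR1H4 (ENSDARG00000057741) was at 2.65, 2.39 and 3.80 TPM in the Ctrl pools and 1.13, 0.74 and 0.93 TPM in the SBMO pools (log2(FC) = -1.54 ± 0.24, adjusted p = 0.0060). The sterol hydroxylase CYP8B1 (ENSDARG00000053068), needed for cholic acid, was at 8.72, 9.08 and 12.9 TPM in the Ctrl pools and 1.70, 1.26 and 3.28 TPM in the SBMO pools, with its groups apart (log2(FC) = -2.31 ± 0.40, adjusted p = 0.0081). Cholesterol synthesis showed no such shift, with 0 lower and 0 higher calls among 26 genes and a median of -0.26. The unadjusted p by limma was under 0.05 for 7 of these 26, a smaller share than the 7519 of 19020 over all genes. Its enzyme HMGCS1 (ENSDARG00000103025) was at 24.04, 16.7 and 13.2 TPM in the Ctrl pools and 19.7, 9.61 and 21.4 TPM in the SBMO pools, and the groups overlapped (log2(FC) = -0.11 ± 0.33, adjusted p = 0.83).

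Detoxification genes were lower to a degree near that of the bile acid list, and redox genes to a smaller one. The xenobiotic list, which holds cytochromes P450, conjugating enzymes and efflux pumps, had 54 lower and 0 higher of 104 (median -1.01). The efflux pump abcg2a (ENSDARG00000100075) was at 42.2, 30.03 and 39.5 TPM in the Ctrl pools and 5.73, 8.07 and 11.4 TPM in the SBMO pools, with wholly separate groups (log2(FC) = -2.16 ± 0.26, adjusted p = 0.0040). The microsomal epoxide hydrolase EPHX1 (ENSDARG00000042854) was at 15.6, 11.8 and 17.2 TPM in the Ctrl pools and 4.15, 3.32 and 4.65 TPM in the SBMO pools (log2(FC) = -1.84 ± 0.25, adjusted p = 0.0047). The vitamin D hydroxylase CYP2R1 (ENSDARG00000056587) was at 5.47, 5.79 and 6.65 TPM in the Ctrl pools and 2.35, 1.07 and 1.27 TPM in the SBMO pools, SBMO pool 1 being the highest of its group (log2(FC) = -1.92 ± 0.28, adjusted p = 0.0051). Among redox genes 27 of 67 were lower and 1 was higher (median -0.66). The shares were 40.3% and 1.49%, against 11.6% and 8.30% of all genes. Thioredoxin-interacting protein, TXNIP (ENSDARG00000070000), which is induced by glucose, was at 42.01, 32.00 and 34.6 TPM in the Ctrl pools and 14.2, 12.6 and 15.4 TPM in the SBMO pools. The spread within each group was small beside the difference (log2(FC) = -1.34 ± 0.15, adjusted p = 0.0037). The glutathione peroxidases gpx1a (ENSDARG00000018146) and gpx4a (ENSDARG00000068478) were at 84.3, 81.3 and 104 TPM in the Ctrl pools and 53.2, 36.4 and 39.98 TPM in the SBMO pools for the former and 383, 458 and 575 TPM in the Ctrl pools and 119, 194 and 196 TPM in the SBMO pools for the latter, each without overlap (log2(FC) = -1.05 ± 0.17, adjusted p = 0.0068 and log2(FC) = -1.48 ± 0.28, adjusted p = 0.010). Lower counts depended on the pools here as well, at 15 xenobiotic and 4 redox genes without SBMO pool 2 and 16 and 6 without Ctrl pool 3.

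Of 46 genes of glycolysis and gluconeogenesis, 13 were lower and 1 higher (28.3% and 2.17%, against 11.6% and 8.30% of all genes). The median was -0.31. The liver-type pyruvate kinase PKLR (ENSDARG00000042010) was at 224, 242 and 257 TPM in the Ctrl pools and 90.9, 26.2 and 37.4 TPM in the SBMO pools, with SBMO pool 1 well above its partners (log2(FC) = -2.41 ± 0.34, adjusted p = 0.0051). The gluconeogenic enzyme fbp1b (ENSDARG00000020364) was at 91.4, 107 and 146 TPM in the Ctrl pools and 23.3, 18.1 and 31.4 TPM in the SBMO pools (log2(FC) = -2.23 ± 0.32, adjusted p = 0.0051). In the opposite direction the brain-type aldolase ALDOC (ENSDARG00000057661) was at 14.6, 13.2 and 14.1 TPM in the Ctrl pools and 30.4, 26.8 and 22 TPM in the SBMO pools. It was higher in each SBMO pool (log2(FC) = 0.92 ± 0.18, adjusted p = 0.012), with the call lost without SBMO pool 2 (0.054). The list for fasting and muscle atrophy had 7 lower and 3 higher of 30 (23.3% and 10.0%, against 11.6% and 8.30% of all genes), with a median of -0.05. In it the pyruvate dehydrogenase kinase PDK4 (ENSDARG00000054848), induced by fasting, was at 21.4, 15.99 and 18.2 TPM in the Ctrl pools and 6.09, 7.64 and 8.91 TPM in the SBMO pools (log2(FC) = -1.27 ± 0.23, adjusted p = 0.0094). Of 347 solute carriers 91 were lower and 17 higher (26.2% and 4.90%, against 11.6% and 8.30% of all genes). The phosphate transporter slc34a2b (ENSDARG00000036864), with the smallest adjusted p of the list, was at 6.0, 4.64 and 4.83 TPM in the Ctrl pools and 1.48, 1.29 and 1.62 TPM in the SBMO pools, with its groups well apart (log2(FC) = -1.73 ± 0.17, adjusted p = 0.0031). Among the carriers called higher, the fatty acid transporter SLC27A1 (ENSDARG00000104949) was at 4.70, 2.77 and 4.30 TPM in the Ctrl pools and 7.90, 9.41 and 11.4 TPM in the SBMO pools (log2(FC) = 1.30 ± 0.20, adjusted p = 0.0061) and the vesicular glutamate transporter SLC17A6 (ENSDARG00000041150), a marker of excitatory neurons, at 20.5, 20.4 and 12.9 TPM in the Ctrl pools and 35.3, 33.5 and 36.1 TPM in the SBMO pools (log2(FC) = 1.01 ± 0.19, adjusted p = 0.010).

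**Figure D3:**
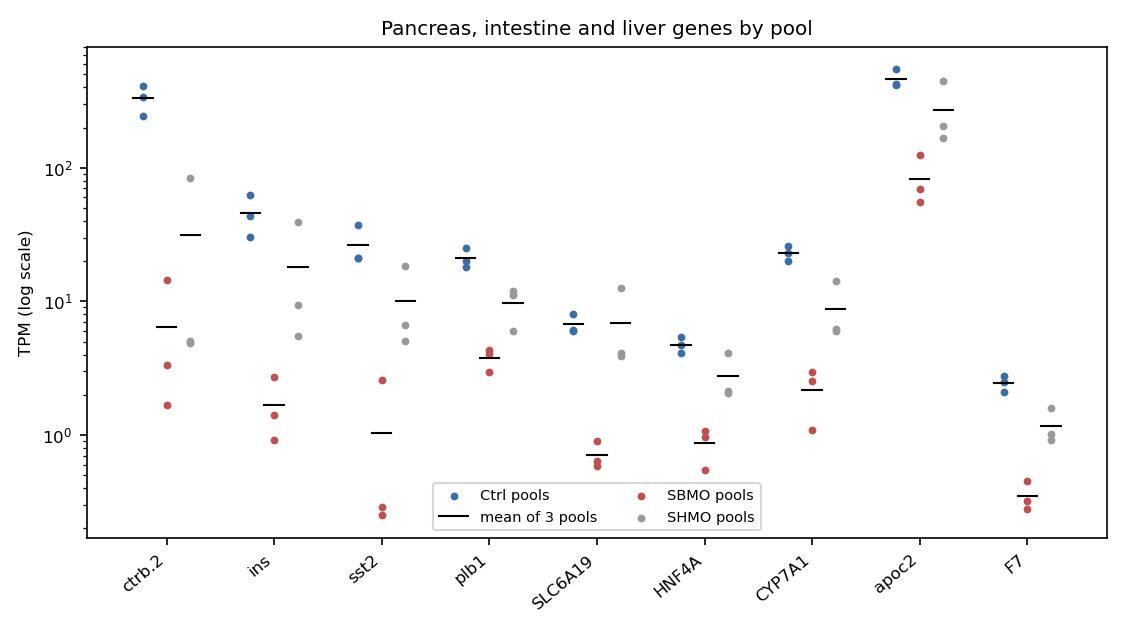
TPM on a log axis for 9 genes of pancreas, intestine and liver, with 1 point per pool for Ctrl, SBMO and SHMO and a bar at each group's mean. The SBMO pools lie below the Ctrl pools for each gene, as for ins (0.91 to 2.73 against 30.3 to 62.7 TPM), and the SHMO pools spread widely for ins (5.49 to 39.2 TPM).

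Muscle changed in part. Fast skeletal muscle makes up much of a larva, and of 51 genes of its sarcomere 8 were lower and 0 higher, with a median of -0.07. The share called lower was close to that of all genes. A fast troponin I, TNNI2 (ENSDARG00000005841), was at 6.12, 5.77 and 7.91 TPM in the Ctrl pools and 1.07, 1.22 and 1.78 TPM in the SBMO pools (log2(FC) = -2.20 ± 0.35, adjusted p = 0.0064). The slow and cardiac list had 9 lower and 0 higher of 33 (27.3% lower, against 11.6% of all genes). Its median was -0.68, and SBMO pool 1 deviated most. Cardiac troponin C, tnnc1a (ENSDARG00000011400), was at 4.28, 3.77 and 5.85 TPM in the Ctrl pools and 0.39, 0.06 and 0.23 TPM in the SBMO pools, without overlap (log2(FC) = -3.98 ± 0.56, adjusted p = 0.0051). Myoglobin, mb (ENSDARG00000031952), the oxygen store of muscle, was at 95.4, 103 and 105 TPM in the Ctrl pools and 19.9, 15.9 and 23.8 TPM in the SBMO pools, its SBMO pools close to each other (log2(FC) = -2.35 ± 0.33, adjusted p = 0.0051). The slow myosin heavy chain MYH7 (ENSDARG00000079782) was at 6.69, 6.83 and 9.96 TPM in the Ctrl pools and 0.42, 1.14 and 1.92 TPM in the SBMO pools (log2(FC) = -2.82 ± 0.45, adjusted p = 0.0064).

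Skeleton, matrix and skin lists leaned down. Among collagens 16 of 50 were lower and 1 higher, among cartilage and bone genes 8 of 30 lower and 0 higher, and among keratins and claudins 18 of 57 lower and 0 higher. The lower shares were 32.0%, 26.7% and 31.6%, against 11.6% of all genes. The medians were -0.47, -0.42 and -0.49. The collagen COL10A1 (ENSDARG00000054753), made by hypertrophic cartilage and forming bone, was at 5.28, 9.28 and 15.1 TPM in the Ctrl pools and 0.88, 0.21 and 0.54 TPM in the SBMO pools (log2(FC) = -3.98 ± 0.61, adjusted p = 0.0060). Matrilin MATN1 (ENSDARG00000030215), a cartilage matrix protein, was at 44.5, 52.2 and 73.5 TPM in the Ctrl pools and 7.13, 7.99 and 7.32 TPM in the SBMO pools. The SBMO pools were nearly equal to each other and far below Ctrl (log2(FC) = -2.86 ± 0.53, adjusted p = 0.0096). The small proteoglycan FMOD (ENSDARG00000010294) was at 9.55, 4.70 and 9.61 TPM in the Ctrl pools and 0.86, 1.30 and 2.29 TPM in the SBMO pools (log2(FC) = -2.36 ± 0.40, adjusted p = 0.0077). In skin, the keratin cyt1l (ENSDARG00000036832) fell less but with little spread, at 2360.1, 1883 and 2178 TPM in the Ctrl pools and 1459.8, 1114 and 1313 TPM in the SBMO pools (log2(FC) = -0.71 ± 0.10, adjusted p = 0.0052). Another keratin, krt92 (ENSDARG00000036834), was at 325, 345 and 357 TPM in the Ctrl pools and 119, 84.7 and 127 TPM in the SBMO pools (log2(FC) = -1.64 ± 0.30, adjusted p = 0.0097). The tight junction protein cldn8.2 (ENSDARG00000040628) was at 19.7, 16.5 and 23.8 TPM in the Ctrl pools and 7.27, 8.79 and 10.5 TPM in the SBMO pools, also without overlap (log2(FC) = -1.15 ± 0.22, adjusted p = 0.011). Fibronectin, FN1 (ENSDARG00000006526), was at 38.3, 55.2 and 42.6 TPM in the Ctrl pools and 8.81, 10.3 and 19.8 TPM in the SBMO pools, where SBMO pool 3 was the highest of its group (log2(FC) = -1.86 ± 0.34, adjusted p = 0.0094). Without SBMO pool 2 the lower calls numbered 2 collagens, 3 cartilage genes and 6 keratins and claudins, and without Ctrl pool 3 4, 3 and 5.

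In blood, 10 of 31 erythroid genes were lower (32.3%, against 11.6% of all genes) and 0 higher (median -0.51). Summed over the list the level was 1839, 2089 and 2453 TPM in the Ctrl pools and 1832, 1215 and 1538 TPM in the SBMO pools. SBMO pool 1 was thus close to Ctrl pool 1. The red cell anion exchanger SLC4A1 (ENSDARG00000024560) was at 5.49, 4.09 and 8.13 TPM in the Ctrl pools and 0.39, 0.38 and 0.57 TPM in the SBMO pools. All SBMO pools were under 1 TPM, so this gene too passed the filter through Ctrl (log2(FC) = -3.41 ± 0.40, adjusted p = 0.0040). Ferrochelatase, FECH (ENSDARG00000003462), which closes the synthesis of heme, was at 3.01, 2.64 and 3.03 TPM in the Ctrl pools and 0.77, 0.99 and 1.23 TPM in the SBMO pools (log2(FC) = -1.45 ± 0.25, adjusted p = 0.0082). Other erythroid calls were less stable. RHAG (ENSDARG00000019253) lost its call without Ctrl pool 3 (0.053) and without SBMO pool 2 (0.056). Both tfr1a (ENSDARG00000101322) and hbae1.1 (ENSDARG00000089475) lost theirs without each Ctrl pool in turn and without SBMO pool 2 (up to 0.077 and 0.078). Myeloid and inflammation genes had 4 lower and 0 higher of 37, a share near that of all genes. The lysosomal cathepsin ctss2.2 (ENSDARG00000013771) was the clearest, at 17.7, 14.5 and 21.3 TPM in the Ctrl pools and 5.96, 8.02 and 8.04 TPM in the SBMO pools (log2(FC) = -1.25 ± 0.19, adjusted p = 0.0056). Interferon response genes had 1 lower call of 11 (9.09%, also near that share).

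Most nervous system lists leaned the other way, by less. Nerve cells signal through vesicle release and receptor channels, and the larval brain at this age holds working circuits beside dividing progenitors. Of 41 glutamate receptor genes 19 were higher and 0 lower (median log2(FC) 0.81), of 79 vesicle release genes 22 higher and 3 lower (0.53), of 69 synaptic adhesion genes 16 higher and 0 lower (0.59), and of 54 protocadherins 20 higher and 2 lower (0.52). GABA and glycine genes had 10 higher of 45 and 0 lower, calcium channels 10 of 46 and 1, cholinergic genes 4 of 26 and 0, and potassium channels 14 of 97 and 9 (14.4% and 9.28%). Over all genes the shares were 8.30% higher and 11.6% lower. Monoamine genes had 2 higher and 2 lower of 41 (4.88% each), both under the shares of all genes.

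Far fewer of these genes were called without Ctrl pool 3, which was low in nerve cell genes, or without SBMO pool 2. Summed over the glutamate receptors the level was 519, 441 and 278 TPM in the Ctrl pools and 811, 734 and 600.2 TPM in the SBMO pools, so Ctrl pool 3 stood well below its partners and every SBMO pool stood above all of Ctrl. Without Ctrl pool 3 the median of this list was 0.52 in place of 0.81, with 2 genes higher in place of 19. That of synaptic adhesion went to 0.36 with 1 gene higher, that of vesicle release to 0.34 with 2, and that of protocadherins to 0.27 with 5. Without SBMO pool 2 the 4 lists kept medians of 0.78, 0.62, 0.52 and 0.50, with 0, 0, 2 and 2 genes called higher. The same Ctrl pool had the highest deviation of the 6 in the exocrine pancreas (2.96), intestinal epithelium (1.18) and liver plasma proteins and coagulation (0.92).

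**Figure D4:**
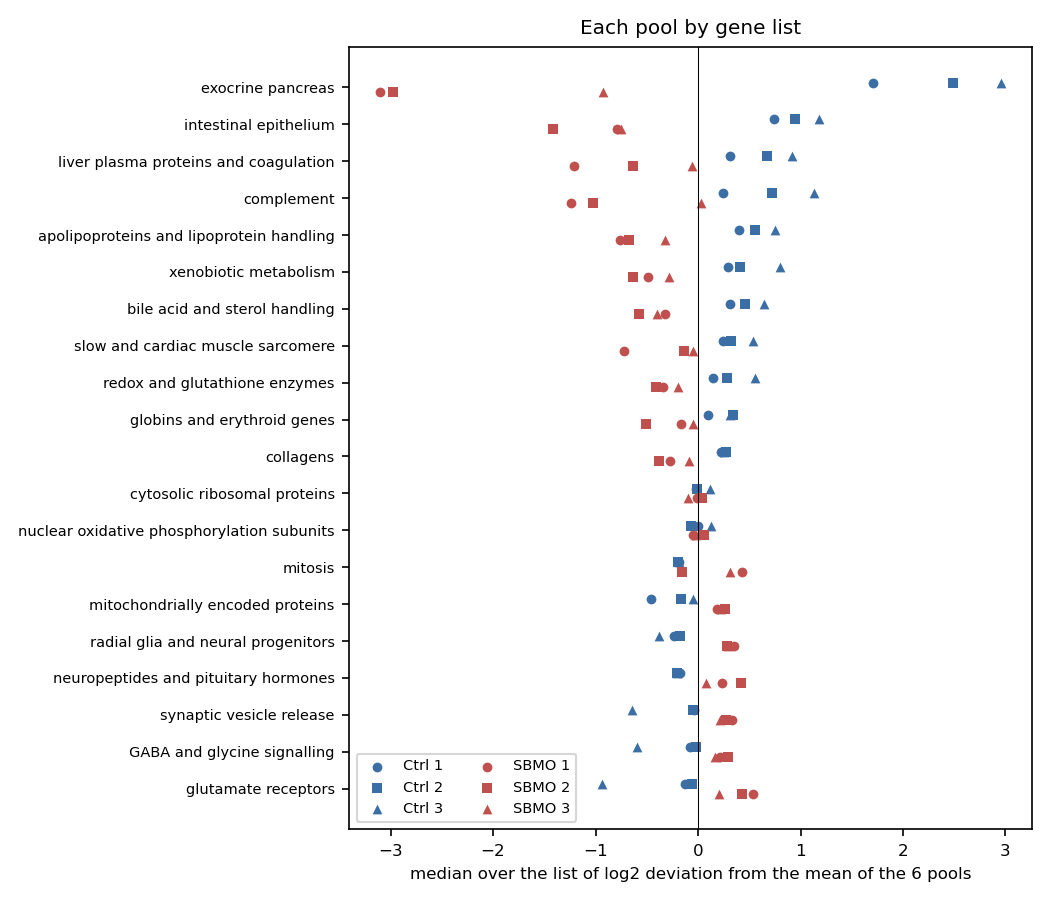
For 20 lists, each symbol gives 1 pool's median over the list of the log2 deviation from the mean of the 6 pools (Ctrl blue, SBMO red, with shapes for pools 1 to 3). The groups lie on either side of 0 for the exocrine pancreas (-3.10 to -0.93 against 1.71 to 2.96) and for glutamate receptors (0.20 to 0.53 against -0.94 to -0.05), with Ctrl 3 the lowest pool in the latter.

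Of the vesicle release genes, the synaptobrevin vamp1a (ENSDARG00000031283) was at 37.6, 45.8 and 29.8 TPM in the Ctrl pools and 115, 93.4 and 90.6 TPM in the SBMO pools. It was the clearest rise of the list and kept its call without any 1 pool (log2(FC) = 1.43 ± 0.21, adjusted p = 0.0055). The vesicle GTPase RAB3C (ENSDARG00000014462) was at 20.3, 19.2 and 16.2 TPM in the Ctrl pools and 39.8, 31.96 and 31.4 TPM in the SBMO pools, also stable (log2(FC) = 0.90 ± 0.18, adjusted p = 0.012). Synaptotagmin SYT4 (ENSDARG00000036505) was at 34.5, 29.2 and 24.1 TPM in the Ctrl pools and 53.6, 53.4 and 45.1 TPM in the SBMO pools, and SNAP25 (ENSDARG00000058117), a core part of the fusion machinery, at 175, 145 and 119.5 TPM in the Ctrl pools and 251, 298 and 257 TPM in the SBMO pools. Neither overlapped (log2(FC) = 0.82 ± 0.18, adjusted p = 0.016 and log2(FC) = 0.91 ± 0.20, adjusted p = 0.016), but the first lost its call without Ctrl pool 3 (0.052) and without SBMO pool 2 (0.066) and the second without Ctrl pool 3 (0.059) and without SBMO pool 2 (0.067). The complexin CPLX3 (ENSDARG00000062508), found at ribbon synapses of the retina, went down, at 3.39, 2.94 and 3.08 TPM in the Ctrl pools and 1.61, 0.37 and 0.39 TPM in the SBMO pools (log2(FC) = -2.13 ± 0.45, adjusted p = 0.014), with the call lost without Ctrl pool 3 (0.0503) and without SBMO pool 2 (0.057). Among receptors the AMPA subunit GRIA2 (ENSDARG00000052765) was at 37.2, 34.2 and 28.8 TPM in the Ctrl pools and 63.4, 62.2 and 50.5 TPM in the SBMO pools. Each SBMO pool exceeded each Ctrl pool (log2(FC) = 0.83 ± 0.17, adjusted p = 0.013), with the call lost without SBMO pool 2 (0.056). A second AMPA subunit, GRIA3 (ENSDARG00000037498), was at 12.1, 10.7 and 7.90 TPM in the Ctrl pools and 20.9, 21.1 and 16.4 TPM in the SBMO pools (log2(FC) = 0.95 ± 0.21, adjusted p = 0.015), lost without Ctrl pool 3 (0.052) and without SBMO pool 2 (0.066). The glycine transporter SLC6A5 (ENSDARG00000067964) of inhibitory neurons was at 16.1, 14.6 and 8.63 TPM in the Ctrl pools and 28.4, 29.3 and 24.3 TPM in the SBMO pools (log2(FC) = 1.12 ± 0.24, adjusted p = 0.014), lost without SBMO pool 2 (0.061).

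Ion channels gave several stable calls in both directions. The calcium-activated potassium channel KCNN2 (ENSDARG00000014939) was at 1.79, 1.92 and 2.06 TPM in the Ctrl pools and 3.69, 3.88 and 3.90 TPM in the SBMO pools, with very little spread in SBMO (log2(FC) = 0.97 ± 0.18, adjusted p = 0.0096). The sodium channel subunit SCN3B (ENSDARG00000062359) was at 17.3, 15.9 and 14.3 TPM in the Ctrl pools and 28.5, 49.8 and 43.3 TPM in the SBMO pools (log2(FC) = 1.33 ± 0.23, adjusted p = 0.0082). The nicotinic receptor subunit CHRNB3 (ENSDARG00000052764) was at 8.25, 7.90 and 6.69 TPM in the Ctrl pools and 14.2, 15.1 and 14.3 TPM in the SBMO pools, again apart (log2(FC) = 0.95 ± 0.15, adjusted p = 0.0064). Some channels went down. The inward rectifier KCNJ1 (ENSDARG00000090866), known for its part in kidney and ion-transporting cells, was at 7.82, 6.19 and 10.5 TPM in the Ctrl pools and 0.31, 0.56 and 1.15 TPM in the SBMO pools (log2(FC) = -3.52 ± 0.39, adjusted p = 0.0037), and the background potassium channel KCNK5 (ENSDARG00000023587) at 3.10, 2.92 and 3.01 TPM in the Ctrl pools and 1.19, 0.89 and 0.98 TPM in the SBMO pools (log2(FC) = -1.47 ± 0.23, adjusted p = 0.0060). The accessory protein IL1RAPL1 (ENSDARG00000104853) of synaptic adhesion was at 4.11, 3.51 and 2.56 TPM in the Ctrl pools and 6.50, 8.07 and 6.88 TPM in the SBMO pools (log2(FC) = 1.09 ± 0.22, adjusted p = 0.013), with the call lost without SBMO pool 2 (0.058). The protocadherin pcdh1g1 (ENSDARG00000104007) was at 1.1, 0.91 and 0.80 TPM in the Ctrl pools and 2.79, 3.76 and 2.66 TPM in the SBMO pools, and no SBMO pool overlapped Ctrl (log2(FC) = 1.62 ± 0.22, adjusted p = 0.0047).

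Activity-linked genes were led by NR4A3 (ENSDARG00000055854), an orphan nuclear receptor induced by neuronal activity and stress, at 4.82, 3.80 and 2.64 TPM in the Ctrl pools and 12.7, 22.8 and 15.99 TPM in the SBMO pools. The lowest SBMO pool was more than 2 times the highest Ctrl pool (log2(FC) = 2.18 ± 0.29, adjusted p = 0.0047). The neurotrophin BDNF (ENSDARG00000018817), which supports neuron survival and synapses, was at 19.4, 15.5 and 17.6 TPM in the Ctrl pools and 28.9, 37.5 and 31.1 TPM in the SBMO pools, also without overlap and stable (log2(FC) = 0.91 ± 0.17, adjusted p = 0.011). The list as a whole had 4 higher and 1 lower of 32 (12.5% and 3.1%, against 8.30% and 11.6% of all genes). Its median depended on SBMO pool 3, at 0.09 without it and 0.53 with it. FKBP5 (ENSDARG00000028396), a co-chaperone that is induced by glucocorticoids and restrains their receptor, was at 55.4, 50.7 and 67.7 TPM in the Ctrl pools and 146, 218 and 214 TPM in the SBMO pools. SBMO pool 1 was the lowest of its group and still above 2 times any Ctrl pool (log2(FC) = 1.73 ± 0.19, adjusted p = 0.0037).

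Radial glia and progenitor genes were higher in a way that depended less on Ctrl pool 3. Of 36 radial glia and neural progenitor genes 15 were higher and 1 lower (median 0.61), with 9 higher without Ctrl pool 3 (median 0.55) and 5 without SBMO pool 2. The shares were 41.7% higher and 2.78% lower, against 8.30% and 11.6% of all genes. The Notch target her4.2 (ENSDARG00000094426) was at 24.3, 22.2 and 25.9 TPM in the Ctrl pools and 49.5, 39.03 and 45.7 TPM in the SBMO pools (log2(FC) = 0.90 ± 0.13, adjusted p = 0.0055). The brain lipid-binding protein FABP7 (ENSDARG00000007697), the classic radial glia gene, was at 581, 567 and 657 TPM in the Ctrl pools and 1281, 983 and 1119 TPM in the SBMO pools. Every SBMO pool was well above Ctrl (log2(FC) = 0.92 ± 0.15, adjusted p = 0.0066). The proneural cofactor HES6 (ENSDARG00000019335) was at 19.96, 16.4 and 15.5 TPM in the Ctrl pools and 51.3, 34.1 and 31.1 TPM in the SBMO pools (log2(FC) = 1.15 ± 0.20, adjusted p = 0.0084), and the progenitor factor SOX3 (ENSDARG00000053569) at 23.3, 22.4 and 19.2 TPM in the Ctrl pools and 38.9, 32.5 and 34.4 TPM in the SBMO pools (log2(FC) = 0.72 ± 0.14, adjusted p = 0.010). The glial glutamate transporter SLC1A2 (ENSDARG00000052138) went down, at 11.98, 12.3 and 10.5 TPM in the Ctrl pools and 5.67, 6.89 and 9.70 TPM in the SBMO pools, with SBMO pool 3 close to Ctrl (log2(FC) = -0.65 ± 0.19, adjusted p = 0.038), and lost its call without Ctrl pool 1 (0.073), without Ctrl pool 2 (0.11), without Ctrl pool 3 (0.072), without SBMO pool 1 (0.095), without SBMO pool 2 (0.10), without SHMO pool 2 (0.056), without SHMO pool 3 (0.059), with the 6 pools alone in the model (0.071) and with a replicate block (0.056). Of 27 myelin genes 7 were higher and 2 lower (25.9% and 7.41%, against 8.30% and 11.6% of all genes), but the list also holds neuronal genes such as GPM6A. The marker of myelinating glia, mbpa (ENSDARG00000036186), overlapped between groups, at 149, 125 and 131 TPM in the Ctrl pools and 145, 166 and 135 TPM in the SBMO pools. The neuronal glycoprotein GPM6A (ENSDARG00000055455) was at 304, 293 and 260.4 TPM in the Ctrl pools and 491, 525 and 459 TPM in the SBMO pools (log2(FC) = 0.80 ± 0.14, adjusted p = 0.0086) and a myelin basic protein gene, mbpb (ENSDARG00000089413), at 111, 104 and 124 TPM in the Ctrl pools and 194, 165 and 169 TPM in the SBMO pools, both without overlap (log2(FC) = 0.66 ± 0.13, adjusted p = 0.011). The neuregulin receptor ERBB3 (ENSDARG00000006202) of Schwann cells went the other way, at 11.4, 8.52 and 11.6 TPM in the Ctrl pools and 2.79, 3.46 and 6.32 TPM in the SBMO pools (log2(FC) = -1.36 ± 0.27, adjusted p = 0.012), lost without Ctrl pool 3 (0.0502) and without SBMO pool 2 (0.054).

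Neuropeptide genes had 16 higher and 7 lower of 48 (33.3% and 14.6%, against 8.30% and 11.6% of all genes), so the lower share was near that of all genes. The hypothalamic peptide qrfp (ENSDARG00000094637) was at 1.68, 0.99 and 1.01 TPM in the Ctrl pools and 3.53, 3.64 and 2.97 TPM in the SBMO pools, apart from Ctrl (log2(FC) = 1.44 ± 0.25, adjusted p = 0.0078). Neurokinin B, tac3a (ENSDARG00000093089), was at 12.2, 10.5 and 11.3 TPM in the Ctrl pools and 20.1, 20.1 and 18.3 TPM in the SBMO pools (log2(FC) = 0.80 ± 0.15, adjusted p = 0.0094), and the vasopressin gene avp (ENSDARG00000058567) at 4.28, 4.14 and 5.70 TPM in the Ctrl pools and 11.7, 8.31 and 8.33 TPM in the SBMO pools (log2(FC) = 1.00 ± 0.20, adjusted p = 0.013). The pro-opiomelanocortin gene POMC (ENSDARG00000043135), the precursor of corticotropin, was lower, at 4.13, 4.22 and 5.57 TPM in the Ctrl pools and 1.58, 1.58 and 1.78 TPM in the SBMO pools. The SBMO pools were nearly alike (log2(FC) = -1.41 ± 0.29, adjusted p = 0.013), and the call was lost without Ctrl pool 3 (0.052) and without SBMO pool 2 (0.051).

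The retina split within its own pathway. Of 64 phototransduction genes 12 were lower and 8 higher (18.8% and 12.5%, against 11.6% and 8.30% of all genes), and the median was -0.02. Cone genes of the light response and genes of the visual cycle, which regenerates the chromophore in the pigment epithelium and Müller glia, were among the strongest falls. Recoverin, RCVRN (ENSDARG00000009637), a calcium sensor of photoreceptors, was at 369, 341 and 381 TPM in the Ctrl pools and 64.2, 95.3 and 155 TPM in the SBMO pools. All SBMO pools were well below any Ctrl pool (log2(FC) = -1.87 ± 0.26, adjusted p = 0.0047). Cone arrestin, ARR3 (ENSDARG00000056511), was at 707, 602 and 597 TPM in the Ctrl pools and 100.0, 163 and 279 TPM in the SBMO pools (log2(FC) = -1.92 ± 0.29, adjusted p = 0.0059), and the cone phosphodiesterase subunit pde6ha (ENSDARG00000102558) at 3889.6, 3704 and 3597 TPM in the Ctrl pools and 1114, 1566 and 1834 TPM in the SBMO pools, both without overlap (log2(FC) = -1.32 ± 0.20, adjusted p = 0.0060). The retinoid isomerase RPE65 (ENSDARG00000007480) was at 149, 103 and 122 TPM in the Ctrl pools and 9.77, 15.6 and 41.5 TPM in the SBMO pools, with a wide range among the SBMO pools and none near Ctrl (log2(FC) = -2.71 ± 0.43, adjusted p = 0.0064). The retinaldehyde carrier rlbp1b (ENSDARG00000045808) was at 119, 104 and 142 TPM in the Ctrl pools and 17.9, 26.2 and 51.6 TPM in the SBMO pools (log2(FC) = -2.04 ± 0.35, adjusted p = 0.0079). Other cone genes rose, the phosphodiesterase subunit PDE6H (ENSDARG00000056791) at 4.29, 4.86 and 5.16 TPM in the Ctrl pools and 9.10, 9.97 and 8.50 TPM in the SBMO pools (log2(FC) = 0.95 ± 0.16, adjusted p = 0.0079) and the red opsin opn1lw1 (ENSDARG00000044862) at 1.99, 1.66 and 1.77 TPM in the Ctrl pools and 3.63, 3.50 and 3.80 TPM in the SBMO pools (log2(FC) = 0.99 ± 0.19, adjusted p = 0.010). In the lens, 5 of 56 crystallin and lens genes were higher and 1 lower (8.93% and 1.79%, against 8.30% and 11.6% of all genes). The median was 0.28 and log2(FC) was positive for 47 of the 56, so the list leaned up. Its summed level was 43161, 45385 and 47373 TPM in the Ctrl pools and 59503, 58540 and 52423 TPM in the SBMO pools. The lens marker CRYAA (ENSDARG00000053502) overlapped between groups, at 88.8, 105 and 76.95 TPM in the Ctrl pools and 53.35, 77.6 and 63.8 TPM in the SBMO pools. The crystallin crygm2f (ENSDARG00000078134) was at 23.5, 23.5 and 24.3 TPM in the Ctrl pools and 75.1, 48.3 and 39.7 TPM in the SBMO pools (log2(FC) = 1.15 ± 0.24, adjusted p = 0.013), which lost its call without SBMO pool 2 (0.051).

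**Figure D5:**
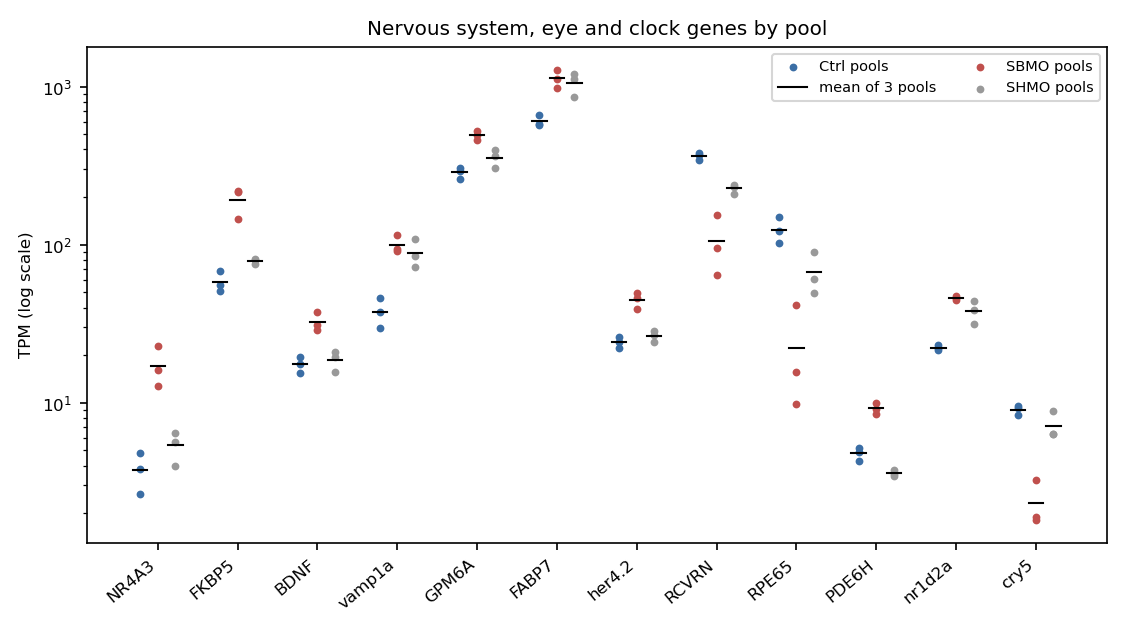
TPM on a log axis for 12 genes of the nervous system, eye and clock, with 1 point per pool and a bar at each group's mean. NR4A3, FKBP5, BDNF and her4.2 are higher in SBMO than in both other groups, whereas FABP7 lies at a similar level in SBMO (983 to 1281 TPM) and SHMO.

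Cell division lists had shares of higher calls near that of all genes (8.30%), at 12.7% for mitosis and 7.58% for DNA replication, and the SBMO pools differed among themselves. Of 63 mitosis genes 8 were higher and 0 lower (median 0.39), and of 66 DNA replication genes 5 and 0 (0.27). Over all genes 11.6% were lower. The log2(FC) was positive for 58 of the mitosis and 51 of the replication genes, against 10206 of all 19020, so both lists leaned up. SBMO pool 2 stood at a median deviation of -0.15 for mitosis and -0.20 for replication, while pools 1 and 3 stood at 0.43 and 0.31 and at 0.24 and 0.32. Without it the mitosis median was 0.58, with 10 genes called. Stathmin, STMN1 (ENSDARG00000033655), a microtubule regulator of dividing cells and growing axons, was at 269.9, 282 and 315 TPM in the Ctrl pools and 492, 481 and 472 TPM in the SBMO pools (log2(FC) = 0.76 ± 0.14, adjusted p = 0.0098). The spindle checkpoint kinase bub1ba (ENSDARG00000078825) was at 2.14, 1.44 and 1.52 TPM in the Ctrl pools and 3.53, 2.35 and 3.53 TPM in the SBMO pools (log2(FC) = 0.86 ± 0.20, adjusted p = 0.019), and its call was lost without Ctrl pool 2 (0.056) and without Ctrl pool 3 (0.058). Of 13 hox genes 4 were higher and 0 lower (30.8% higher, against 8.30% of all genes). Of these hoxa9a (ENSDARG00000105013), with the smallest adjusted p, was at 3.52, 3.08 and 3.04 TPM in the Ctrl pools and 5.70, 4.53 and 5.06 TPM in the SBMO pools (log2(FC) = 0.66 ± 0.14, adjusted p = 0.013), lost with 1 added in place of 0.1 (log2(FC) = 0.55). The other hox calls were less stable. The call of hoxb6b (ENSDARG00000026513) was lost in 4 of the runs without a pool and that of hoxa9b (ENSDARG00000056819) in 5. That of hoxc1a (ENSDARG00000070337) was lost under 14 of 18 alternatives.

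Core functions were mostly level. The cytosolic ribosome had 2 lower and 0 higher of 85 (median -0.04), the proteasome 1 and 0 of 53 (0.06), and nuclear subunits of oxidative phosphorylation 3 and 2 of 93 (median within 0.01 of 0). Over all genes 11.6% were lower and 8.30% higher. The 13 proteins encoded by mitochondrial DNA were not level, with a median of 0.43 and a positive log2(FC) for 12 of the 13. Of them 3 were called higher (23.1%) and 0 lower. Their summed level was 65556, 78535 and 86329 TPM in the Ctrl pools and 107031, 98995 and 107144 TPM in the SBMO pools. The respiratory subunit MT-CO3 (ENSDARG00000063912) was at 11574, 12058 and 11989 TPM in the Ctrl pools and 18125, 18408 and 17435 TPM in the SBMO pools, apart from Ctrl (log2(FC) = 0.62 ± 0.11, adjusted p = 0.0082). Its call was lost without Ctrl pool 1 (log2(FC) = 0.54), without SBMO pool 2 (log2(FC) = 0.56) and with quantile normalization (0.063). In the ribosome list rps11l (ENSDARG00000093606), a second gene for a small-subunit protein, was at 21.1, 10.8 and 17.4 TPM in the Ctrl pools and 1.76, 1.91 and 3.43 TPM in the SBMO pools (log2(FC) = -2.74 ± 0.27, adjusted p = 0.0031).

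Clock and stress genes moved singly. Of 49 clock genes 3 were higher and 3 lower (6.12% each, against 8.30% and 11.6% of all genes). The clock repressor nr1d2a (ENSDARG00000003820) was at 23.3, 22.3 and 21.4 TPM in the Ctrl pools and 46.97, 45.7 and 44.4 TPM in the SBMO pools, with hardly any spread in either group (log2(FC) = 1.05 ± 0.15, adjusted p = 0.0051), and the D-box factor dbpa (ENSDARG00000063014) at 8.24, 7.94 and 7.02 TPM in the Ctrl pools and 12.7, 11.7 and 17.4 TPM in the SBMO pools (log2(FC) = 0.84 ± 0.16, adjusted p = 0.011). The light-induced cry5 (ENSDARG00000019498), of the photolyase and cryptochrome family, was lower at 9.49, 8.36 and 9.22 TPM in the Ctrl pools and 1.88, 1.81 and 3.25 TPM in the SBMO pools (log2(FC) = -1.95 ± 0.22, adjusted p = 0.0037). Among 58 chaperones 4 were higher and 5 lower (6.90% and 8.62%, both under the shares of all genes). The inducible HSP90AA1 (ENSDARG00000024746) was at 22.9, 19.6 and 15.1 TPM in the Ctrl pools and 34.9, 35.6 and 68.6 TPM in the SBMO pools, with SBMO pool 3 well above the others (log2(FC) = 1.23 ± 0.24, adjusted p = 0.011), and the muscle small heat shock protein HSPB7 (ENSDARG00000104441) at 7.62, 7.27 and 11.2 TPM in the Ctrl pools and 2.07, 2.34 and 2.53 TPM in the SBMO pools (log2(FC) = -1.83 ± 0.29, adjusted p = 0.0062). Of 31 p53 targets 4 were higher and 5 lower (12.9% and 16.1%, against 8.30% and 11.6% of all genes). The stress genes GADD45A (ENSDARG00000043581) and GADD45G (ENSDARG00000016725) went opposite ways, the former at 10.4, 9.15 and 12.7 TPM in the Ctrl pools and 3.37, 4.70 and 5.27 TPM in the SBMO pools (log2(FC) = -1.25 ± 0.21, adjusted p = 0.0077) and the latter at 24.99, 20.8 and 24.97 TPM in the Ctrl pools and 45.7, 39.1 and 42.4 TPM in the SBMO pools (log2(FC) = 0.86 ± 0.15, adjusted p = 0.0081).

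Genes that make, move or remove sialic acid had 7 lower and 1 higher calls of 35, with a median of -0.02. The share called lower was above the 11.6% of all genes, and the share called higher (2.86%) was under their 8.30%. The membrane sialidase NEU3 (ENSDARG00000010047), which cuts sialic acid from gangliosides, was at 8.01, 6.72 and 11.4 TPM in the Ctrl pools and 3.05, 1.91 and 2.01 TPM in the SBMO pools. The SBMO pools were all below Ctrl (log2(FC) = -1.84 ± 0.25, adjusted p = 0.0047). The sialyltransferase st3gal7 (ENSDARG00000039064) was at 3.67, 3.14 and 3.98 TPM in the Ctrl pools and 0.69, 0.35 and 0.91 TPM in the SBMO pools, and it passed the filter through Ctrl (log2(FC) = -2.36 ± 0.39, adjusted p = 0.0069). The lysosomal sialic acid exporter slc17a5 (ENSDARG00000055190) was at 9.22, 7.88 and 7.59 TPM in the Ctrl pools and 4.66, 4.25 and 4.72 TPM in the SBMO pools (log2(FC) = -0.82 ± 0.17, adjusted p = 0.013), lost without SBMO pool 2 (0.052). The rate-limiting enzyme of sialic acid synthesis, GNE (ENSDARG00000099771), was at 10.1, 6.84 and 6.09 TPM in the Ctrl pools and 9.95, 13.1 and 12.8 TPM in the SBMO pools. Its groups overlapped at SBMO pool 1 (log2(FC) = 0.67 ± 0.22, adjusted p = 0.048), and the call was lost without Ctrl pool 1 (0.0503), without Ctrl pool 2 (0.11), without Ctrl pool 3 (0.14), without SBMO pool 2 (0.15), without SBMO pool 3 (0.10), without SHMO pool 2 (0.053), without SHMO pool 3 (0.071), without the filter on low values (0.063), without scaling (0.063), with quantile normalization (0.053), with the 6 pools alone in the model (0.059), without a trend in the variance prior (0.061) and with a replicate block (0.071). Over the list 2 genes were lower without SBMO pool 2.

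The largest rises were looked at across all lists, among genes with separate pools and a mean of at least 5 TPM in SBMO. The long non-coding RNA lnc.363 (ENSDARG00000105162) was at 1.43, 1.75 and 0.50 TPM in the Ctrl pools and 8.29, 9.54 and 7.44 TPM in the SBMO pools (log2(FC) = 2.85 ± 0.40, adjusted p = 0.0051). The zinc-finger gene znf423 (ENSDARG00000095732) was at 0.26, 3.72 and 2.34 TPM in the Ctrl pools and 15.3, 7.76 and 6.21 TPM in the SBMO pools, with Ctrl pool 1 far below its partners (log2(FC) = 2.62 ± 0.84, adjusted p = 0.048), and its call was lost without Ctrl pool 1 (0.10), without Ctrl pool 3 (0.088), without SBMO pool 1 (0.13), without SBMO pool 2 (0.12), without SBMO pool 3 (0.062), without SHMO pool 2 (0.058), without the filter on low values (0.069), with quantile normalization (0.060), with the 6 pools alone in the model (0.055), without a trend in the variance prior (0.064), robust variance prior (0.086) and with a replicate block (0.058). After NR4A3, the growth factor PDGFA (ENSDARG00000110069) was at 0.95, 1.07 and 1.76 TPM in the Ctrl pools and 5.95, 4.41 and 5.16 TPM in the SBMO pools (log2(FC) = 2.01 ± 0.25, adjusted p = 0.0043). The small heat shock protein hspb9 (ENSDARG00000078674) was at 11.99, 7.25 and 11.97 TPM in the Ctrl pools and 16.8, 49.3 and 62.02 TPM in the SBMO pools (log2(FC) = 1.88 ± 0.42, adjusted p = 0.016), with SBMO pool 1 near Ctrl, and lost its call without Ctrl pool 2 (0.055) and without SBMO pool 2 (0.068). The nuclear import receptor IPO8 (ENSDARG00000058159) was at 4.60, 5.24 and 3.57 TPM in the Ctrl pools and 21.1, 14.9 and 12.1 TPM in the SBMO pools (log2(FC) = 1.82 ± 0.24, adjusted p = 0.0046), and rprm3 (ENSDARG00000092792), of the reprimo family of cell cycle inhibitors, at 3.31, 3.78 and 4.75 TPM in the Ctrl pools and 12.3, 13.1 and 13.8 TPM in the SBMO pools (log2(FC) = 1.74 ± 0.24, adjusted p = 0.0049). The RNA lnc.363, PDGFA, IPO8 and rprm3 kept their calls without any 1 pool.

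Of the 277 named genes called against Ctrl, 59 also differed between SBMO and SHMO larvae at the same thresholds, a contrast in which 4.41% of all genes did. The same SBMO pools chose these genes, so nothing is read from their share beside that of all genes. Both groups were injected with the same volume, concentration and timing. The count was 11 without SBMO pool 2 and 72 without SBMO pool 3. SHMO pool 1 stood apart from the other SHMO pools in digestive lists, with a median deviation from the 6 other pools of 0.94 against -2.32 and -2.57 for the exocrine pancreas and 1.15 against -0.10 and 0.08 for the intestinal epithelium. Insulin was at 39.2, 9.31 and 5.49 TPM in the SHMO pools. It was lower in SBMO (SBMO minus SHMO log2(FC) -2.88 ± 0.64, adjusted p = 0.035), as did the amino acid transporter SLC6A19 (-2.82 ± 0.38, adjusted p = 0.0058), the bile acid enzyme CYP7A1 (-1.87 ± 0.37, adjusted p = 0.024) and protein C, PROC (-2.78 ± 0.34, adjusted p = 0.0038), all in the same direction. Higher in SBMO were FKBP5 (1.35 ± 0.19, adjusted p = 0.0069), at 75.1, 81.6 and 79.7 TPM in the SHMO pools, NR4A3 (1.73 ± 0.29, adjusted p = 0.012), BDNF (0.89 ± 0.17, adjusted p = 0.024), her4.2 (0.84 ± 0.13, adjusted p = 0.010), PDE6H (1.42 ± 0.16, adjusted p = 0.0029) and opn1lw1 (1.59 ± 0.19, adjusted p = 0.0030). The clock factor dbpa was at 36.01, 39.5 and 41.7 TPM in the SHMO pools, above SBMO (-1.42 ± 0.16, adjusted p = 0.0029). For other genes no difference was found. The SBMO minus SHMO log2(FC) had a 95% interval of -1.16 to 1.74 for the lipase CEL (ENSDARG00000029822), -0.15 to 0.51 for FABP7, -0.20 to 0.74 for vamp1a, -0.35 to 0.68 for SCN3B and -0.40 to 0.37 for gpx1a, so equal effects are not shown. SBMO and SHMO were each set against the same Ctrl pools.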

How the data were processed

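Whole larvae were sequenced as 9 pools (3 Ctrl, 3 SBMO and 3 SHMO). The authors trimmed the reads and aligned them to GRCz11, and the submitters' processing notes name STAR and RSEM. The deposited values are TPM, given to 2 decimals by Ensembl gene. TPM divides by gene length and by the library, so it keeps no depth, and a large change in a few abundant genes moves all other values.

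Values were rescaled by median-ratio factors (0.918 to 1.07 per pool) and put on a log2 scale after adding 0.1, which understates changes of low genes. Genes averaging 1 TPM or more across the SBMO and Ctrl pools were tested with limma 3.58.1 in R 4.3.3 (lmFit, contrasts and eBayes with a trend), with all 9 pools in 1 model of 3 groups and Benjamini-Hochberg adjustment over all genes tested. Thresholds were those of the study. Its DESeq2 test needs counts and was not run. Python 3.11.15 and matplotlib 3.10.9 made the figures.

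Members, lists and the rule for named genes were chosen with earlier results of these data known. The rule takes the 10 largest rises and 10 largest falls among called genes with separate pools and a higher mean of at least 5 TPM, and, per list, up to 5 called genes with the smallest adjusted p in its main direction and up to 2 in the other, or its 2 most abundant members where fewer than 2 were called. It also takes the called spliceosomal RNAs. Lists were matched by symbol, with 30 matches left out because their names are not those of members, and a list of vitellogenins had no member tested. Symbols came from a table of Ensembl names for 29201 genes, capital ones being those of the human match. Markers and the genes at the filter edge are named outside the rule. Lists were described by counts and medians, with no set test. On simulated data with 200 of 19020 genes changed, the model called 42% of changes of 1 in log2(FC) and 87.8% of changes of 2. Far more genes were called in the real data, so these shares need not hold there. Some genes that the rule takes are not reported here. Alternatives were other pseudocounts, filters, scalings, variance priors and thresholds, a replicate block, the 6 pools alone and leaving out each pool.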

Additional observations from a re-analysis of the deposited data

How the results depend on the processing

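No called gene named by the rule changed sign under the alternatives run for it (at most 19), although list medians close to 0 did, such as that of phototransduction (-0.02, but 0.01 without SBMO pool 3), and counts depended on single pools, on the threshold and on the filter. Of 3786 calls, 611 (138 higher, 473 lower) had an adjusted p of at most 0.01, and 245 (25 higher, 220 lower) passed limma's treat test of exceeding the fold threshold. A filter of 5 TPM left 2287 (1195 higher, 1092 lower, so that higher calls became the more frequent, at 52.3% of the calls in place of 41.7%) and 39 named genes that also differed from SHMO, in place of 59, since fewer genes were tested. Leaving out 1 pool gave 959 to 4310 calls, 247 to 1843 higher and 712 to 2467 lower, and 11 to 72 named genes that differed from SHMO. The lowest counts were without SBMO pool 2 (959) and without Ctrl pool 3 (1290), followed by 2102 without Ctrl pool 1 and 2229 without Ctrl pool 2. Of the 277 named calls 122 were kept without each pool in turn, 143 were lost without SBMO pool 2 and 119 without Ctrl pool 3. With quantile normalization 1777 genes were higher and 1936 lower, and the median log2(FC) over all genes moved from 0.05 to 0.09. List medians moved by more than the spread between pools in 40 of 1026 recalculations.

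The labels do not say whether equal replicate numbers pair the pools, and 3 pools per group cannot settle it. Correlations of same-numbered deviations were -0.04, 0.03 and 0.12, and of the Ctrl pools only pool 3 correlated best with its own number. With a replicate block 2915 genes were called (1112 higher, 1803 lower) and 24 of the named calls were lost. Read depth was not used, and genes near 1 TPM were not given a counting error.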

Other observations

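Small nuclear RNAs, which form the spliceosome and carry no poly(A) tail, appeared unevenly in these libraries, which the labels give as made after poly(A) selection. Of 31 tested, 4 were lower in SBMO and 0 higher, and 12.9% lower is near the 11.6% of all genes. Their summed level was 503, 12536 and 188 TPM in the Ctrl pools and 297, 397 and 183 TPM in the SBMO pools. Ctrl pool 2 was therefore far above every other pool. One U1 (ENSDARG00000113445) gene was at 4.28, 305 and 3.46 TPM in the Ctrl pools and listed at 0 in all 3 SBMO pools, and rnu2 (ENSDARG00000117035) was at 4.69, 38.3 and 3.60 TPM in the Ctrl pools and 1.30, 0 and 0 TPM in the SBMO pools. Not being stable, rnu2 was no longer called without SBMO pool 2 (0.063), rnu6ataca under 3 of 19 alternatives and rnu4atacb under 13. No fold is given for these RNAs.

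Amino acid metabolism had 9 lower and 1 higher of 49 (18.4% and 2.04%, against 11.6% and 8.30% of all genes). Its median was -0.08 and 21 of the 49 had a positive log2(FC), so the list did not shift as a whole. Cystathionine synthase, CBS (ENSDARG00000053500), which draws homocysteine toward cysteine, was at 13.3, 11.1 and 15.01 TPM in the Ctrl pools and 5.82, 2.93 and 4.69 TPM in the SBMO pools (log2(FC) = -1.56 ± 0.26, adjusted p = 0.0071). A folate enzyme gene, MTHFD1 (ENSDARG00000018266), was at 2.56, 2.80 and 3.10 TPM in the Ctrl pools and 0.49, 0.39 and 0.42 TPM in the SBMO pools, and it passed the filter through Ctrl (log2(FC) = -2.44 ± 0.42, adjusted p = 0.0082). The asparaginyl-tRNA synthetase NARS1 (ENSDARG00000061100) was higher, at 16.2, 15.2 and 13.4 TPM in the Ctrl pools and 32.6, 23.7 and 23.02 TPM in the SBMO pools (log2(FC) = 0.82 ± 0.15, adjusted p = 0.0098). Each of the 3 kept its call without any 1 pool. The unfolded protein response had 1 higher and 1 lower of 41 (2.44% each, under the shares of all genes). Zinc finger genes named znf had 11 higher and 5 lower of 197 (5.58% and 2.54%, also under those shares). The smallest adjusted p was that of ZNF800 (ENSDARG00000004594), at 3.99, 3.91 and 2.42 TPM in the Ctrl pools and 6.96, 7.26 and 7.17 TPM in the SBMO pools (log2(FC) = 1.08 ± 0.20, adjusted p = 0.0093). Voltage-gated sodium channels had 1 higher and 1 lower of 10 (10.0% each, near the shares of all genes). The matrix protease list had 14 lower and 2 higher of 57 (24.6% and 3.51%, against 11.6% and 8.30% of all genes).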
